A study of Eublepharis macularius with 4 samples.

Results

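The FOS, JUN and ATF3 family of the leopard gecko comprised 8 genes, FOS, FOSB, FOSL1, FOSL2, JUN, JUNB, JUND and ATF3, all of which were found by name among the 24025 features of the deposited matrices. Proteins of this family are basic leucine zipper factors that bind DNA in pairs known as AP-1, in which a FOS protein needs a JUN partner while JUN proteins can also pair with each other. In mammals several of the genes are immediate early genes: they are transcribed within minutes of growth factors, wounding, heat or mechanical strain without new protein synthesis, and their transcripts are short-lived. Enzymatic dissociation of tissue at body temperature is known to raise many of them in mammalian cells, and in skin and oral epithelium AP-1 also takes part in keratinocyte differentiation.

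The cells came from soft tissue of adult jaws of Eublepharis macularius that held oral mucosa, dental lamina and dental mesenchyme, as 4 libraries of 2 animals. LG252 tissue was digested at 37 °C for 4 to 5 h with collagenase D (1.5 U/ml) and dispase II (2.4 U/ml), and tissue of LG255 at 4 °C for 6 h with a protease of Bacillus licheniformis (10 mg/ml). Both were chopped in cold medium with serum, filtered, and sorted for cells that excluded propidium iodide before 3′ single-cell libraries were made. Each animal gave libraries titled biolrep 1 and biolrep 2, which reads as biological replicates, here called replicate 1 and replicate 2. No label says whether these were separate tissue samples of the animal, so the p-values may measure technical spread only. Animal and dissociation changed together and their effects cannot be told apart.

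Members were measured in 3 classes defined by fixed UMI counts, a UMI being 1 counted transcript molecule. Epithelial cells held at least 10 UMIs of LOC129339097 (556 and 623 cells in LG252, 455 and 888 in LG255, replicates 1 and 2). Mesenchymal cells held at least 5 UMIs of the collagen and proteoglycan genes COL1A1, COL1A2, DCN and LUM together (390, 790, 19 and 106 cells in the same order). Immune cells held at least 5 UMIs of 10 leukocyte genes (1068, 133, 16 and 10 cells). Markers outside the rules followed the names of the epithelial and mesenchymal classes. EPCAM, an epithelial adhesion protein, stood at 427 to 570 CPM (UMIs per 1e+06 UMIs of the sum) in the epithelial sums. In the other sums it stood at 0 to 74.4 CPM. PDGFRA, a mesenchymal growth factor receptor, stood at 47.2 to 82.6 CPM in the mesenchymal sums and at most 0.68 CPM elsewhere. For immune cells no marker outside the rule was measured. Epithelial markers, LOC129339097 among them, summed to 85.9 and 151 CPM in immune cells of LG252 and to 149 and 275 CPM in those of LG255. In LG255 replicate 1, LOC129339097 made up 74.4 CPM of this. The part of epithelial RNA in the immune values was not tested. The class sums ranged from 43656 UMIs (immune cells of LG255 replicate 2) to 8127059 (epithelial cells of LG255 replicate 2). Between 2 and 8 barcodes were shared by any pair of libraries. Median mitochondrial shares of epithelial cells were 1.12% and 1.51% in LG252, against 4.84% and 3.80% in LG255, and the part of this difference in the results below was not tested.

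In epithelial cells, 6 of the 8 members were higher in LG252 and none was lower, where 33.8% of the 12528 genes tested were called, 20.6% higher and 13.2% lower. The largest difference was that of JUND, with pooled ratios of LG252 to LG255 of 126, 94.0 and 38.7 in epithelial, mesenchymal and immune cells, and FOS itself did not pass this edgeR test in any class, although 7 of 14 alternatives called it in mesenchymal cells. In mesenchymal cells JUND and FOSB were called, 2 of 7 members tested, where 0.438% of 7539 genes were called, 0.332% higher and 0.106% lower. In immune cells none of 7 members was called at an adjusted p of 0.05, where 0.180% of 4451 genes were called, 0.157% higher and 0.0225% lower. At an unadjusted p under 0.05 edgeR counted 2 of the 7, JUND and FOSL2, among 717 of the 4451 genes. DESeq2 called 1 member, JUND, after adjustment, among 86 genes. The LG255 side of that comparison held 16 and 10 cells. The median log2 fold change of the members tested was 1.51, 2.97 and 0.23 in the epithelial, mesenchymal and immune comparison, beside medians over all genes of -0.02, 0.02 and 0.16.

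**Figure D1:**
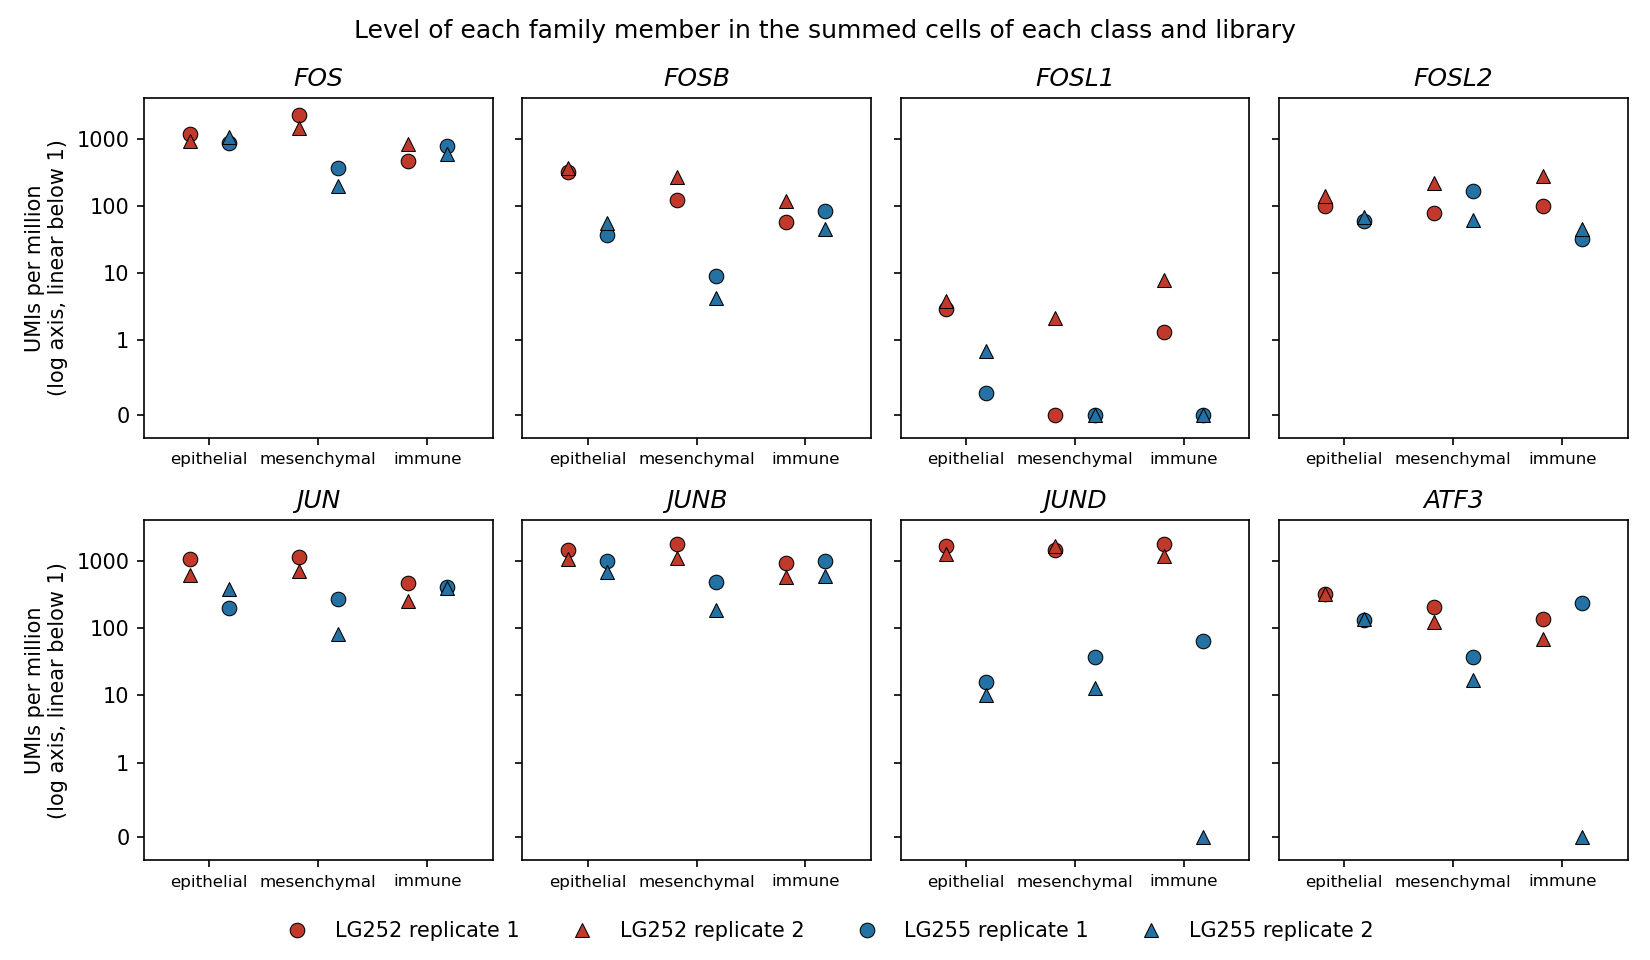
Level of each member, in CPM of the class's UMIs on a log axis that is linear below 1, in epithelial, mesenchymal and immune cells. Each point is the sum of the cells of a class in 1 library, red for LG252 and blue for LG255, with a circle for replicate 1 and a triangle for replicate 2. JUND lies above 1000 CPM in all LG252 sums and below 64 CPM in all LG255 sums, while the 4 FOS points of epithelial cells overlap between the animals.

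JUND encodes the JUN protein that is usually present in resting mammalian cells and responds least to acute stimuli. It lies at chr5:3538804-3540160 of assembly MPM_Emac_v1.0, annotated as a protein-coding gene with 1 transcript. In epithelial cells JUND stood at 1657 and 1259 CPM (LG252) against 15.7 and 10.1 CPM (LG255). The LG252 libraries were both far above the LG255 libraries, and the log2 fold change was 6.99 (SE 0.34, edgeR adjusted p = 7.1e-06), rank 15 of 12528 genes by size among the higher ones. The pooled counts, 19319 against 135 UMIs, gave a ratio of 126 (95% counting interval 106 to 150). In mesenchymal cells JUND stood at 1428 and 1674 CPM (LG252) against 36.7 and 12.8 CPM (LG255), again without overlap, with a log2 fold change of 6.46 with SE 0.56 (edgeR adjusted p = 0.0157). The call was lost without LG255 replicate 1 (edgeR adjusted p = 0.263) and without LG255 replicate 2 (adjusted p = 0.376), settings in which no gene at all was called. In immune cells JUND stood at 1748 and 1170 CPM (LG252) against 63.8 and 0 CPM (LG255), a log2 fold change of 5.47 (SE 0.84) that was not called (edgeR adjusted p = 0.124). That 0 was a count of 0 in 43656 UMIs, which allows up to 68.7 CPM. Immune JUND was called in 7 of 16 alternatives, among them DESeq2 (5.48, adjusted p = 5.1e-07).

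JUND was split by animal in each class. Within LG252 its levels in the 3 classes overlapped, from 1170 to 1748 CPM, and the epithelial to mesenchymal comparison with the library as a block gave a log2 fold change of 0.19 with SE 0.25 (edgeR adjusted p = 0.627). The split held within every sub-class that had at least 10 cells in libraries of both animals. Basal epithelial cells, which carry basement membrane genes, had 1678 and 1254 CPM in LG252, against 16.7 and 5.63 in LG255. Dividing epithelial cells had 1597 and 1032 CPM against 10.8 and 8.19, and the dental-type mesenchyme with MSX1 or LHX8 had 1478 and 1746 CPM against 33.1 and 14.0.

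At a common depth of 1000 UMIs per cell, 74.3% and 69.1% of LG252 epithelial cells held a JUND UMI, and 1.55% and 1.14% of LG255 epithelial cells. Without thinning the shares were 97.7%, 96.3%, 10.5% and 8.11%, at median depths of 11883, 8313, 6863 and 9014 UMIs. No class is known to lack JUND, so free RNA was gauged only roughly by LOC129339097, which marks epithelium. It stood at 10890 to 19208 CPM in epithelial cells and at 52.6 to 275 CPM in immune cells, of which 21.4% to 60.0% held a UMI of it. The class rule shapes both ranges, since epithelial cells held at least 10 of its UMIs and immune cells fewer. The values therefore do not measure free RNA directly. For the few JUND UMIs of LG255 a low level in the cells and free RNA were not told apart.

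**Figure D2:**
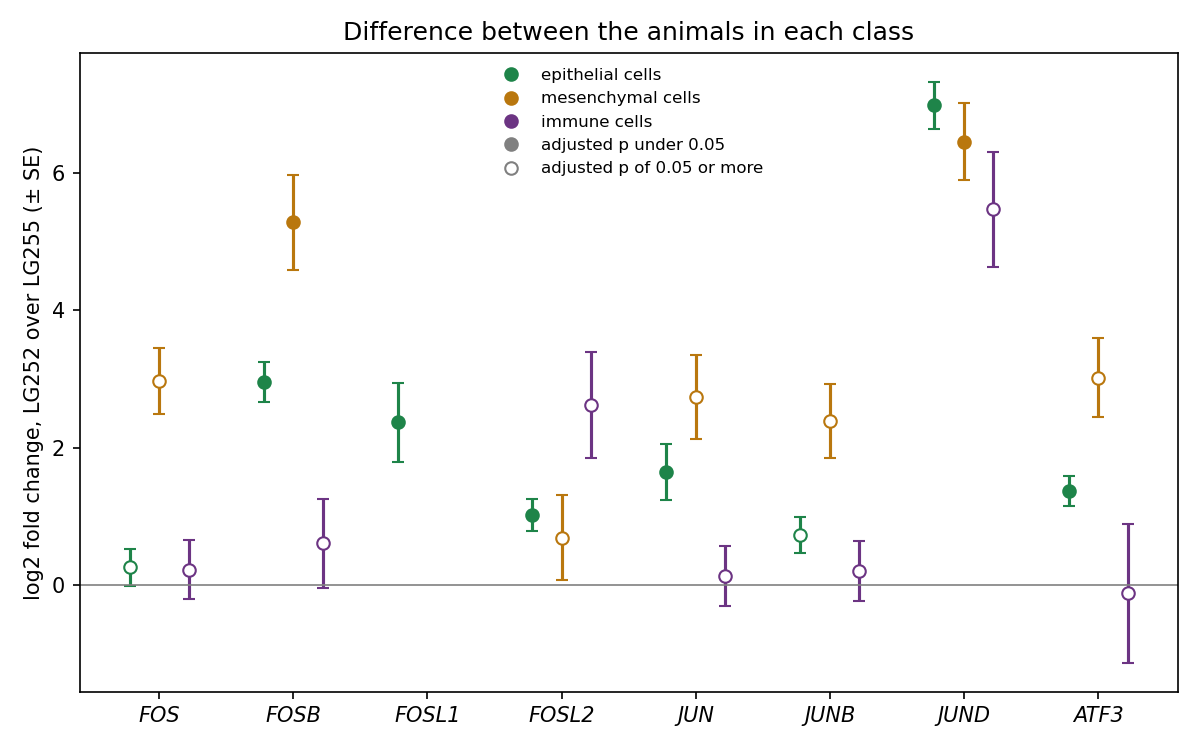
Log2 fold change of LG252 over LG255 (± SE, from edgeR) for each member in epithelial (green), mesenchymal (brown) and immune (purple) cells, with filled symbols for an adjusted p under 0.05. FOSL1 passed the filter on low counts in epithelial cells only. JUND reaches 6.99, 6.46 and 5.47 in the 3 classes, while FOS lies at 0.26 in epithelial and 2.97 in mesenchymal cells.

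JUN, the founding JUN protein and an acute response factor, lies at chr5:80707177-80709573. Its epithelial levels were 1080 and 613 CPM in LG252, against 197 and 378 CPM in LG255. The animals did not overlap, and the log2 fold change of 1.64 (SE 0.41) passed the test (edgeR adjusted p = 0.0130). With DESeq2 the adjusted p was 0.0695. Mesenchymal JUN stood at 1150 and 697 CPM against 266 and 83.1 CPM, a log2 fold change of 2.74 (SE 0.61) that did not pass (edgeR adjusted p = 0.149). It was called in 6 of 14 alternatives, among them DESeq2 (2.73, adjusted p = 0.000774). Immune JUN stood at 461, 251, 415 and 389 CPM in the order of LG252 and LG255, where the animals overlapped.

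JUNB, which can dampen JUN activity in mammalian cells and is itself an early gene, lies at chr4:49052019-49053968. Epithelial JUNB was 1456 and 1065 CPM in LG252, against 991 and 689 CPM in LG255. The animals were separate by a small margin, and the log2 fold change of 0.73 (SE 0.26) missed the threshold (edgeR adjusted p = 0.0580). Without LG252 replicate 2 it was 0.97 (adjusted p = 0.0489) and without LG255 replicate 1 it was 0.87 (adjusted p = 0.0292). In mesenchymal cells JUNB stood at 1754 and 1093 CPM against 477 and 185 CPM, a log2 fold change of 2.39 with SE 0.54 (edgeR adjusted p = 0.155). There JUNB was called in 5 of 14 alternatives, among them DESeq2 (2.39, adjusted p = 0.00180). Its immune levels overlapped, with 912 and 579 CPM in LG252, against 978 and 596 CPM in LG255.

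FOS, the classical immediate early partner of JUN, lies at chr2:45523130-45526498. Epithelial FOS was 1183 and 925 CPM in LG252, against 863 and 1036 CPM in LG255. The animals overlapped, and the log2 fold change of 0.26 (SE 0.27) was not called (edgeR adjusted p = 0.482). Mesenchymal FOS was 2249 and 1410 CPM in LG252, against 367 and 194 CPM in LG255, with no overlap. There the log2 fold change of 2.97 (SE 0.48) ranked 172 of 7539 genes among the higher ones but had an adjusted p of 0.0686 by edgeR. Mesenchymal FOS was called by DESeq2 (2.97, adjusted p = 4.5e-06), with no filter on low counts, with barcodes of several rules kept, with every cell thinned to 1000 UMIs (3.23, edgeR adjusted p = 0.00252), and without either LG252 library. Immune FOS overlapped, at 467 and 835 CPM against 765 and 596 CPM.

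The difference of the animal effect between mesenchymal and epithelial cells was itself tested, with the library as a block. FOS and JUNB were called, 2 of 8 members, where 0.322% of 13034 genes were called, 0.253% higher and 0.0691% lower. FOS differed by 2.88 on the log2 scale (SE 0.42; edgeR adjusted p = 0.00367), and JUNB by 1.89 (SE 0.40, edgeR adjusted p = 0.0411), both larger in mesenchymal cells. The median over all genes of this difference was 0.19. Without LG255 replicate 2, which holds most of that animal's mesenchymal cells, FOS came to 2.30 (edgeR adjusted p = 0.0686) and JUNB to 1.51 (adjusted p = 0.572). FOSB (2.58, adjusted p = 0.241), ATF3 (1.81, adjusted p = 0.295), JUN (1.33, adjusted p = 0.607) and JUND (-0.36, adjusted p = 0.972) were not called in the same edgeR fit. Smooth muscle markers also varied among the mesenchymal sums, with overlap between the animals. All 4 of the list were detected in each sum, at a summed 1078 and 276 CPM in LG252, against 376 and 124 CPM in LG255. Their part in these results was not tested. The same test between immune and epithelial cells called none of the 8 members, where 0.815% of 12882 genes were called, 0.264% higher and 0.551% lower, and the median over all genes was 0.54. At an unadjusted p under 0.05 it counted 975 of those genes and 3 of the 8 members, FOSB, JUN and FOSL2. The difference was negative for FOSB and JUN and positive for FOSL2.

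FOSB encodes a FOS protein that lies at chr15:57494233-57501882 and is annotated with 2 transcripts, which these counts do not separate. Epithelial FOSB stood at 319 and 365 CPM (LG252) against 36.6 and 56.2 CPM (LG255). The libraries of each animal lay closer to each other than to those of the other animal, and the log2 fold change was 2.96 (SE 0.30, edgeR adjusted p = 0.000108). Mesenchymal FOSB stood at 121 and 268 CPM (LG252) against 9.18 and 4.26 CPM (LG255). The latter were 3 UMIs in all, so the pooled ratio of 46.1 had a counting interval of 15.7 to 224. EdgeR gave an adjusted p of 0.0451, which rose to 0.442 without LG255 replicate 1 and to 0.707 without LG255 replicate 2. In immune cells FOSB overlapped, at 58.2 and 119 CPM against 85.0 and 45.8 CPM (log2 fold change 0.61, SE 0.65, edgeR adjusted p = 0.722).

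FOSL1 and FOSL2, also called FRA1 and FRA2, are FOS proteins that lack a transactivation domain of FOS. FOSL1, at chr1:226842609-226853360, was close to the limit of detection. In epithelial cells it stood at 2.93 and 3.90 CPM in LG252 (44 UMIs in all) and at 0.30 and 0.86 CPM in LG255 (8 UMIs), a log2 fold change of 2.37 with SE 0.57 (edgeR adjusted p = 0.0121) that was 3.66 without LG255 replicate 2. Mesenchymal cells of LG252 held 8 FOSL1 UMIs and those of LG255 held 0, and a count of 0 allows up to 27.5 and 6.39 CPM in the latter 2 sums, above the highest LG252 level of 2.15 CPM. A difference was therefore not detectable at this depth, and the same held for immune cells, with 12 and 0 UMIs.

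FOSL2, at chr1:177265365-177291288, had epithelial levels of 100.3 and 139 CPM in LG252, against 59.4 and 67.4 CPM in LG255. These did not overlap (log2 fold change 1.02, SE 0.23, edgeR adjusted p = 0.00916). Mesenchymal FOSL2 was the member that crossed between the animals, with 77.9 and 216 CPM in LG252, against 165 and 61.8 CPM in LG255. Its log2 fold change of 0.69 with SE 0.62 (edgeR adjusted p = 0.692) was the smallest of the 7 members tested in that class. In immune cells FOSL2 stood at 100.6 and 275 CPM (LG252) against 31.9 and 45.8 CPM (LG255), where 5 UMIs were counted, and the log2 fold change of 2.62 (SE 0.78) was not called (edgeR adjusted p = 0.208).

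ATF3, at chr1:192401483-192451252, is a stress-induced factor of the ATF and CREB class that pairs with JUN proteins. Epithelial ATF3 was even within each animal, at 317 and 316 CPM (LG252) against 130 and 136 CPM (LG255). The log2 fold change was 1.37 (SE 0.22, edgeR adjusted p = 0.00135). Mesenchymal ATF3 stood at 207 and 121 CPM against 36.7 and 17.04 CPM (4 and 8 UMIs), a log2 fold change of 3.02 (SE 0.57) with an adjusted p of 0.0967 by edgeR. It was called in 7 of 14 alternatives, among them DESeq2 (3.01, adjusted p = 0.00304). Immune ATF3 was 134 and 68.7 CPM in the LG252 libraries, and 234 CPM in LG255 replicate 1. In LG255 replicate 2 it had a count of 0, which allows up to 68.7 CPM, so that library could not be placed below LG252.

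Members also differed between classes of the same libraries, tested with the library as a block. Between epithelial and mesenchymal cells, 3 of 7 members were higher in epithelium, where 28.9% of 11597 genes were called, 16.5% higher there and 12.5% lower. ATF3 differed by 2.04 on the log2 scale (SE 0.38; edgeR adjusted p = 0.00153), FOSB by 1.89 (SE 0.42, adjusted p = 0.00472) and JUNB by 1.16 (SE 0.37, adjusted p = 0.0339). JUNB was 0.67 without LG255 replicate 2, 1.00 without LG255 replicate 1 and 1.36 without LG252 replicate 2, with adjusted p of 0.177, 0.121 and 0.0637 by edgeR. In each LG252 library the level of JUNB was lower in epithelium than in mesenchyme (1456 against 1754 CPM and 1065 against 1093 CPM), and in each LG255 library it was higher (991 against 477 CPM and 689 against 185 CPM). FOS (1.00, SE 0.53) and JUN (0.84, SE 0.40) were not called, with adjusted p of 0.196 and 0.144 by edgeR. The level of FOS was lower in epithelium than in mesenchyme in both LG252 libraries (1183 against 2249 CPM and 925 against 1410 CPM) and higher in both LG255 libraries (863 against 367 CPM and 1036 against 194 CPM). That of JUN was lower in epithelium in 3 of the 4 libraries and higher in LG255 replicate 2 (378 against 83.1 CPM), so the fitted values do not describe every library.

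Against immune cells, 4 of 7 members were higher in epithelium, where 31.1% of 11424 genes were called, 19.2% higher and 11.9% lower. The log2 difference was 1.56 for FOSB (SE 0.43, edgeR adjusted p = 0.00387), 1.51 for ATF3 (SE 0.42, adjusted p = 0.00455), 1.05 for FOS (SE 0.33, adjusted p = 0.0134) and 0.89 for JUNB (SE 0.32, adjusted p = 0.0285). FOSB was 0.97 without LG252 replicate 1 (edgeR adjusted p = 0.171). FOS lost the call without that library (0.94, adjusted p = 0.123) and without LG255 replicate 2 (0.86, adjusted p = 0.0740), ATF3 without LG252 replicate 2 (1.15, adjusted p = 0.0531), and JUNB without any 1 of the 4 (edgeR adjusted p from 0.0561 to 0.165). With every cell thinned to 1000 UMIs, ATF3 was 0.79, FOS 0.64 and JUNB 0.49, and none of these was called (edgeR adjusted p of 0.214, 0.354 and 0.493). That fit also lacked LG255 replicate 2, whose 9 immune cells at this depth were below the minimum of 10 per class. The part of depth alone was not tested. In LG255 replicate 1 the levels went the other way for FOSB (36.6 CPM in epithelium against 85.0 CPM in immune cells) and for ATF3 (130 against 234 CPM). JUN at 0.84 (SE 0.36, edgeR adjusted p = 0.0736) was not called. Between mesenchymal and immune cells 0 of 7 members were called by edgeR, and also 0 by DESeq2, where edgeR called 23.2% of 6266 genes, 13.4% higher in mesenchyme and 9.83% lower, and 2072 had an unadjusted p under 0.05.

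The immune class was not the same mixture in both animals, and its part in the immune values was not tested. Cells with markers of C1Q macrophages made up 47 and 53 of the 1068 and 133 immune cells of LG252, and 7 and 4 of the 16 and 10 of LG255. Cells with B cell markers numbered 540 and 16 in LG252 and 0 in both LG255 libraries. Within LG252, macrophages had 1651 and 1340 CPM of FOS, and B cells 339 and 704 CPM. The macrophages of LG255 had 1441 and 883 CPM, from 7 and 4 cells.

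FOS also varied within epithelium. In LG252 its level was 1751 and 1471 CPM in epithelial cells that were neither basal nor dividing, and 926 and 711 CPM in basal cells. In LG255 the same cells had 968 and 1075 CPM against 850 and 984 CPM. Each library thus had more FOS in cells neither basal nor dividing than in basal cells, by a wider gap in LG252. JUN followed the same order, at 1357 and 935 CPM against 975 and 480 CPM in LG252 and 240 and 415 CPM against 162 and 303 CPM in LG255. ATF3 had the opposite order in LG252, with 252 and 229 CPM in cells neither basal nor dividing and 367 and 363 CPM in basal cells. In LG255 it did not, at 138 and 162 CPM against 134 and 113 CPM. The epithelial class was not the same mixture in both animals. Basal cells numbered 282 and 333 in LG252 and 153 and 237 in LG255. Cells neither basal nor dividing numbered 199 and 221 in LG252 and 256 and 576 in LG255. These sub-class values, and the part of the mixture in the epithelial levels, were not tested.

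**Figure D3:**
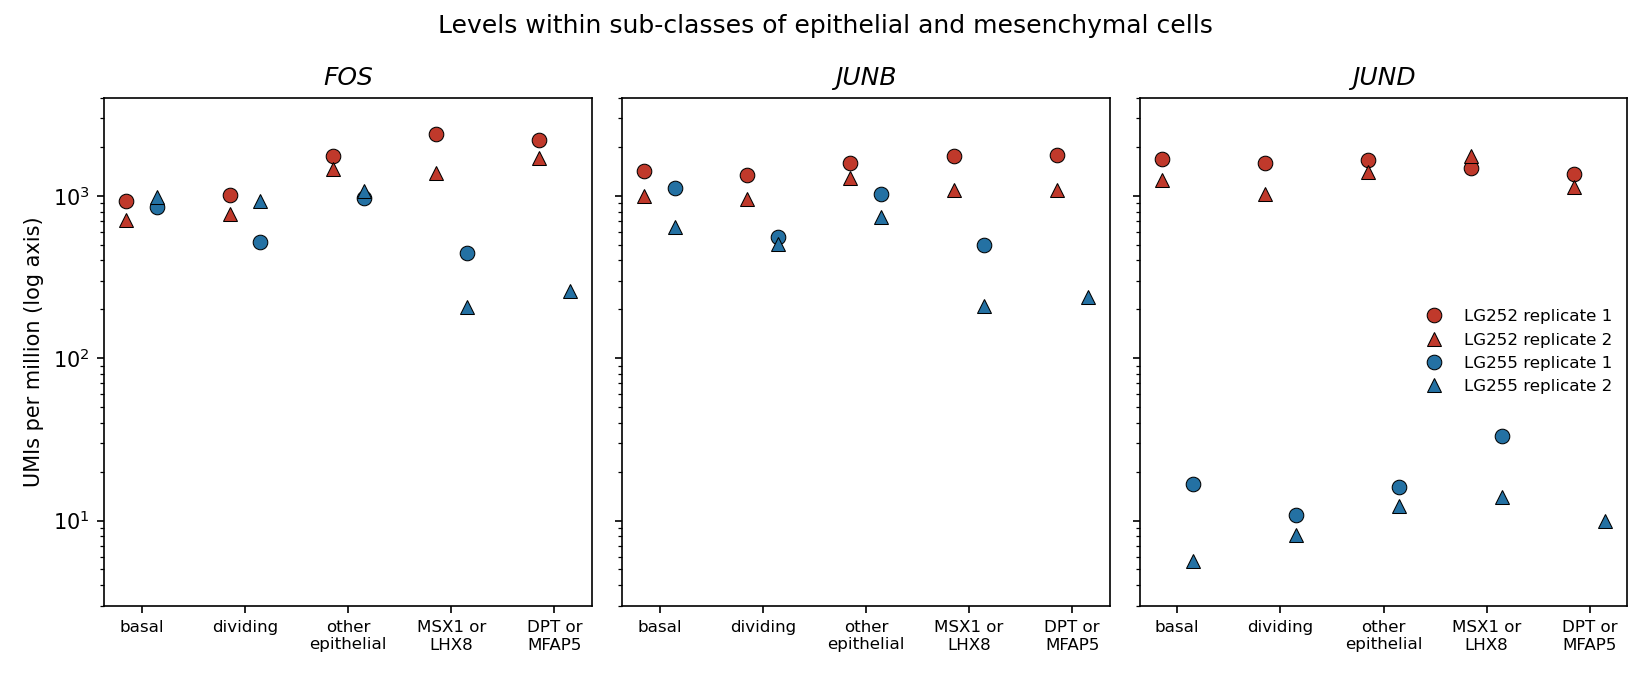
FOS, JUNB and JUND in sub-classes of epithelial cells (basal, dividing, other) and of mesenchymal cells (MSX1 or LHX8, DPT or MFAP5), in CPM on a log axis. Each point is 1 library with at least 10 cells of the sub-class, red for LG252 and blue for LG255. JUND is separated by animal in all of them, whereas FOS of basal cells overlaps between the animals. FOS of other epithelial cells does not overlap, at 1751 and 1471 CPM in LG252 against 968 and 1075 CPM in LG255. The highest FOS point, at 2415 CPM, is that of MSX1 or LHX8 cells of LG252 replicate 1.

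The make-up of the family's UMIs differed between the animals in every class. The shares are of 3′ UMIs, not scaled to transcript length, and so are compared for the same gene across sums. JUND made up 27.1% and 26.9% of the family's UMIs in LG252 epithelial cells and 0.68% and 0.43% in LG255 epithelial cells. Over the 3 classes its share ran from 20.4% to 45.0% in LG252 and from 0% to 2.70% in LG255. FOS, JUN and JUNB together made up 60.8% and 55.5% in LG252 epithelium, and 89.5% and 88.6% in that of LG255. Shares of the same whole are tied, so the small JUND share by itself raises those of the others in LG255. The levels of JUN and JUNB were lower in LG255 epithelium, and those of FOS overlapped. The family as a whole stood at 6116 and 4686 CPM (LG252 epithelium) against 2293 and 2374 CPM (LG255 epithelium). Without JUND these levels were 4459, 3427, 2277 and 2363 CPM, so LG252 epithelium remained higher with JUND left out. The same held in mesenchyme, at 5560 and 3807 against 1321 and 545 CPM without JUND. In immune cells it did not: the family without JUND stood at 2134 and 2136 CPM in LG252, with LG255 on either side at 2509 and 1672 CPM.

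**Figure D4:**
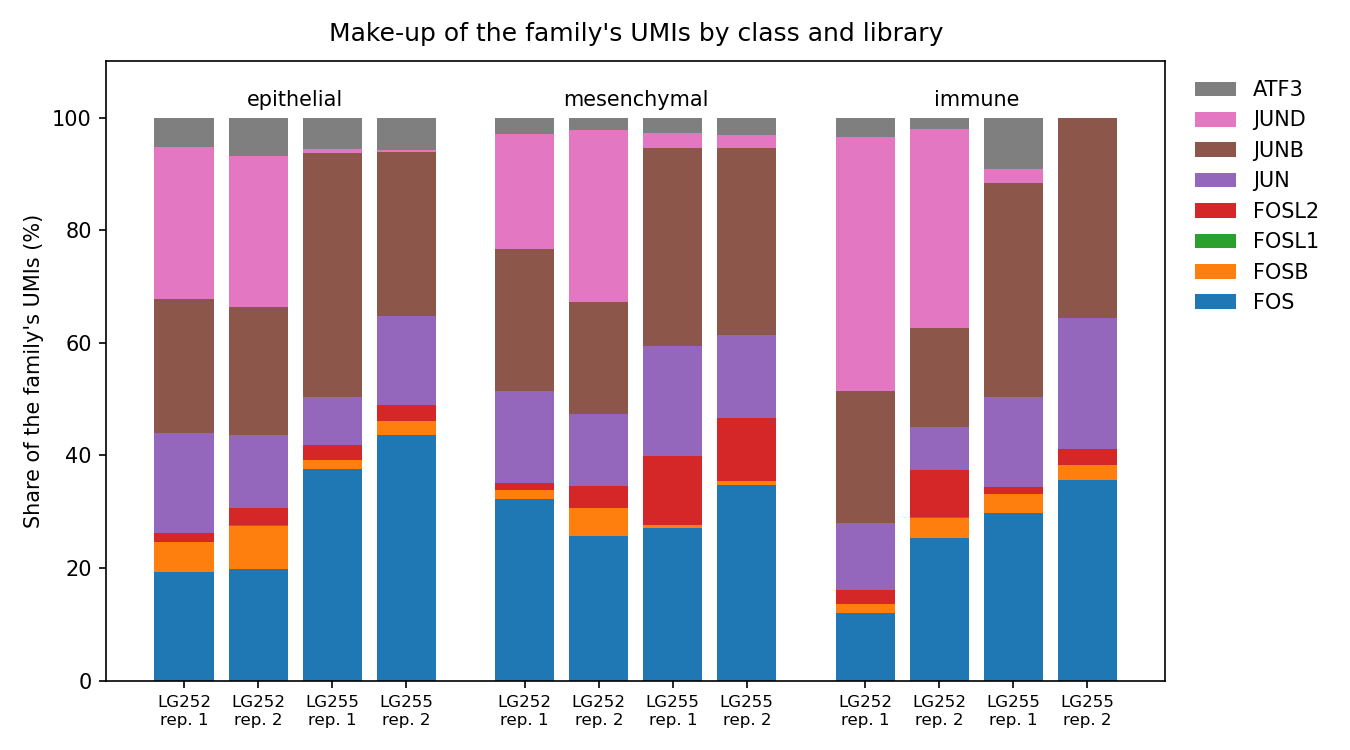
Share of the family's UMIs (%) taken by each of the 8 members in every class and library, with the 4 libraries of a class side by side. The pink JUND segment covers 20.4% to 45.0% of each LG252 bar and at most 2.70% of any LG255 bar, and FOSL1 is too small to see.

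Some members were spread unevenly among cells of the same class. Each cell was thinned to 1000 UMIs, which left out 0 to 10 epithelial cells per library. Of the mesenchymal cells it left out 88 and 74 in LG252 and 2 and 5 in LG255, so their values describe the deeper cells. The variance of a gene's UMIs over its mean was then computed, a ratio of 1 being what even chance capture gives. In epithelial cells this ratio was 3.81 and 4.40 for FOS in LG252 and 2.01 and 2.12 in LG255. For JUND it was 1.40 and 1.32 in LG252. FOSL2 had a ratio of 0.92 to 1.06 in all 4 epithelial libraries, and the few UMIs of JUND in LG255 had 0.99 in both. Their means were low, at 0.056 to 0.10 UMIs per cell for FOSL2 and 0.015 and 0.011 for JUND. At such means the ratio can stay near 1 even where capture is uneven, so these values do not show an even spread. In LG252 epithelium FOS UMIs were concentrated in fewer cells than JUND UMIs. The 10% of these cells with the most held 48.9% and 56.2% of the FOS UMIs, against 30.0% of the JUND UMIs in both libraries.

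The same contrast appeared as detection. If its UMIs had fallen evenly, FOS would have been found in 73.7% and 67.1% of LG252 epithelial cells at that depth, and it was found in 48.6% and 37.4%. JUNB was found in 68.2% and 56.8% where an even spread would give 79.1% and 69.3%. In LG252 mesenchymal cells FOS reached a ratio of 4.92 and 5.07 and was found in 56.3% and 50.3% of cells, and JUND had a ratio of 2.32 and 2.61, wider than in epithelium. With 17 and 101 mesenchymal cells of LG255 left at this depth, and 9 and 22 FOS UMIs among them, the ratios there rest on few counts.

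**Figure D5:**
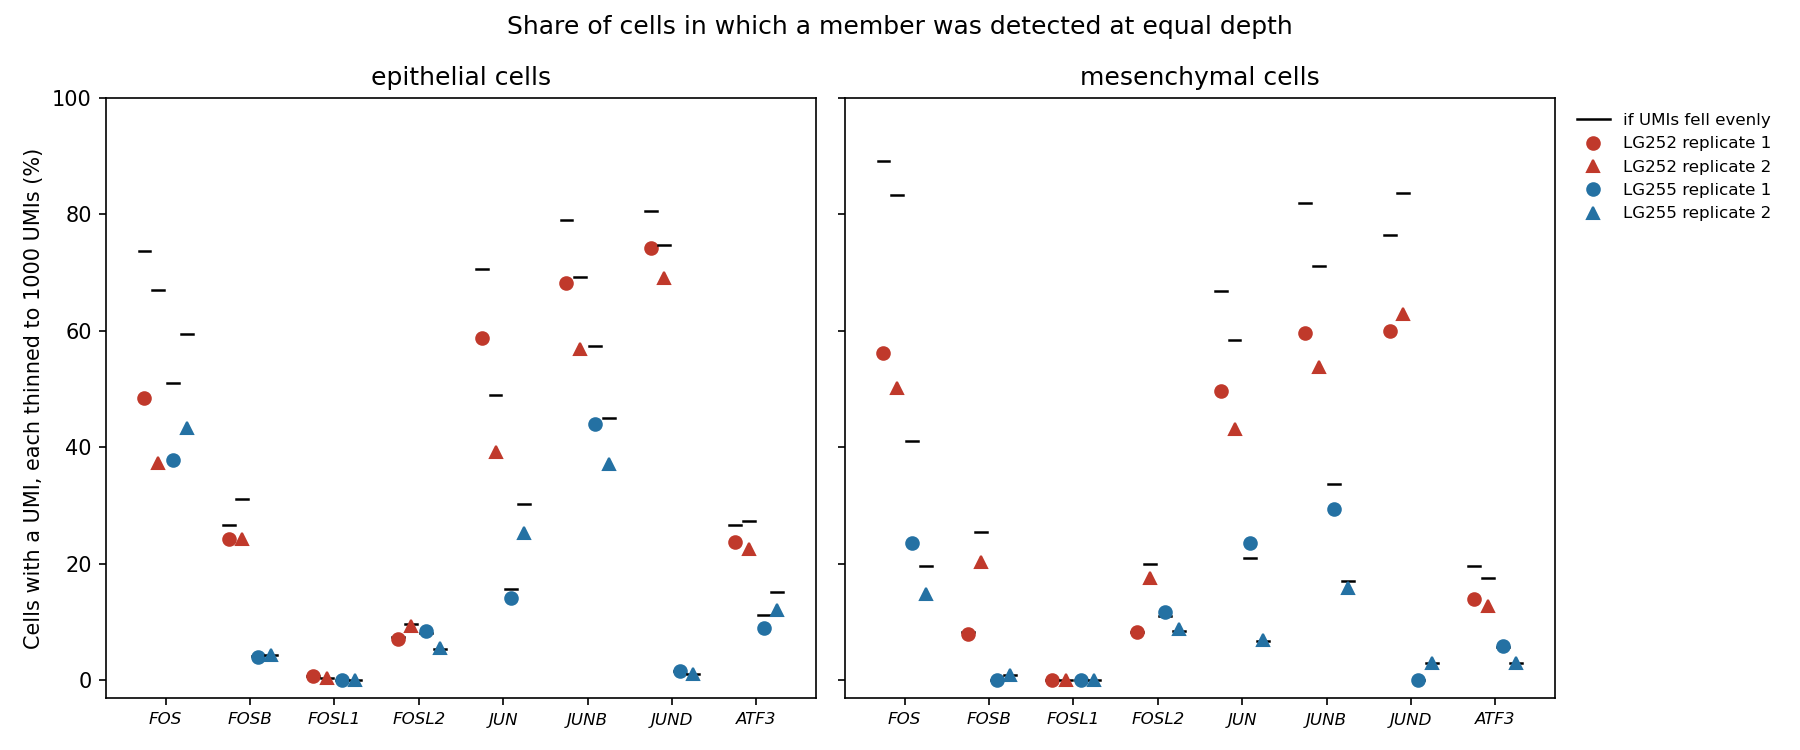
Share of epithelial (left) and mesenchymal (right) cells with at least 1 UMI of each member after every cell was thinned to 1000 UMIs, in red for LG252 and blue for LG255. Black bars mark the share that the same number of UMIs would give if spread evenly over the cells. FOS lies well under its bars in all epithelial libraries (48.6%, 37.4%, 37.8% and 43.4% of cells). FOSB and FOSL2 lie close to theirs in LG255, where low counts leave little room for a gap.

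Epithelial and mesenchymal cells that held several members at once were commoner in LG252. At 1000 UMIs per cell, 64.9% and 53.0% of LG252 epithelial cells held 3 or more of the 8 genes, and 14.4% and 17.8% of LG255 epithelial cells. With JUND left out the shares were 45.0%, 33.0%, 14.2% and 17.7%, so the animals still did not overlap. None of the 8 was found in 2.52% and 7.25% of LG252 epithelial cells and in 35.0% of the cells of each LG255 library. Among mesenchymal cells with at least 1000 UMIs, 52.3% and 52.2% in LG252 and, in LG255, 5.88% and 2.97% held 3 or more. Immune cells did not follow: 38.4% and 35.4% of LG252 cells held 3 or more, 62.5% of the 16 cells of LG255 replicate 1 and 11.1% of the 9 cells of replicate 2. With JUND left out the immune shares were 17.6% and 19.2% for LG252, and 62.5% and 11.1% for LG255.

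FOS and JUNB tended to be found in the same cells in both animals. JUNB was found in 79.3% and 71.6% of LG252 epithelial cells with FOS and in 57.7% and 48.1% of those without it. In LG255 the shares were 62.0% and 58.8% with FOS and 33.1% and 20.7% without it. The Pearson correlation of log-transformed UMIs over cells was 0.35 to 0.41 in the 4 epithelial libraries, each cell being thinned to the same depth. JUND did not go with FOS in LG252 replicate 1, where 72.6% of epithelial cells with FOS and 75.9% of those without it held JUND. In replicate 2 the shares were 72.0% and 67.4%. In LG252 mesenchyme it did, at 71.8% against 44.7% in replicate 1 and 74.7% against 50.8% in replicate 2. These are descriptions of single libraries and were not tested.

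Genes that partner or regulate the family were read from lists of basic leucine zipper partners, upstream kinases, SRF and its ETS cofactors, and targets known from mammals. In epithelial cells 12 of 22 partners tested were higher in LG252 and 0 lower, 5 of 19 kinases were higher and 0 lower, 3 of 5 SRF and ETS genes were higher and 0 lower, and 5 of 8 known targets were higher and 1 lower. Over all genes 20.6% were called higher and 13.2% lower, so the kinases' count lies near that share. The medians of the 4 lists were 1.14, 0.23, 0.94 and 2.08 on the log2 scale, beside -0.02 over all genes. The largest differences were those of HBEGF, an EGF receptor ligand, CEBPD, a CCAAT-binding zipper factor, and CREB5, a partner of JUN. HBEGF stood at 332 and 396 CPM (LG252) against 9.46 and 4.80 CPM (LG255) (log2 fold change 5.88, SE 0.31, edgeR adjusted p = 7.1e-06). CEBPD stood at 531 and 333 CPM against 16.6 and 13.3 CPM (4.99, SE 0.32, edgeR adjusted p = 1.4e-05), and CREB5 at 158 and 218 CPM against 10.6 and 8.12 CPM (4.46, SE 0.26, edgeR adjusted p = 7.9e-06). All of these were far apart between the animals. CCND1, the cell cycle regulator cyclin D1, was the only listed gene that was called lower in LG252, at 14.9 and 16.96 CPM against 44.0 and 26.2 CPM (log2 fold change -0.98, SE 0.24, edgeR adjusted p = 0.0120).

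In mesenchymal cells 3 of 17 partners were called, all higher in LG252, and 0 of 15 kinases, 0 of 4 SRF and ETS genes and 0 of 5 targets. Over all 7539 genes 0.332% were called higher and 0.106% lower, so a count of 0 in such short lists lies near that share. The list medians were 1.73, 0.28, 0.25 and 0.47, beside 0.02 over all genes. CEBPD stood at 1172 and 416 CPM (LG252) against 9.18 and 6.39 CPM (LG255) (log2 fold change 6.97, SE 0.84, edgeR adjusted p = 0.0445). DDIT3, the stress factor CHOP, stood at 426 and 277 CPM against 0 and 6.39 CPM, which was 3 UMIs, a pooled ratio of 59.0 with a counting interval of 20.2 to 287 (edgeR adjusted p = 0.0417). JDP2, a repressor that pairs with JUN, stood at 162 and 145 CPM against 18.4 and 17.04 CPM (3.29, SE 0.45) and lay just inside the threshold of 0.05 by edgeR. In immune cells none of 16 partners, 10 kinases, 2 SRF and ETS genes and 5 targets was called by edgeR. There 0.180% of 4451 genes were called, so these counts too lie near the share over all genes. The immune list medians were 1.77, 0.57, -0.54 and 2.71, beside 0.16 over all genes.

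Over the 12 sums of library and class, the genes whose log2 level lay closest to the members' mean profile were PPP1R15A (Pearson r = 0.96), PCBP2 (0.96), TRIB1 (0.96), ATF4 (0.96) and DNAJC15 (0.95), among 11391 genes and with 7 members in the profile. The 12 sums share their libraries and animals, so these are descriptions. PPP1R15A, whose product brings a phosphatase to eIF2α, stood at 619 and 505 CPM (LG252 epithelium) against 10.3 and 19.3 CPM (LG255 epithelium). Among the members, the correlation with the mean profile ran from 0.65 for FOSL2 to 0.91 for JUND. Each of these members is itself part of the profile. The levels were not scaled before averaging, so a member that varied widely, such as JUND, weighs more in it.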

How the data were processed

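For each of 4 libraries the authors deposited a matrix of raw UMI counts, by gene and by barcode. The file headers name Cell Ranger 7.1.0 and the submitters' processing notes 2.1.0. The assembly is MPM_Emac_v1.0, per the series' design text. Intronic counting and annotation release are not given in the sources used here.

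Barcodes with at least 200 detected genes were kept (8531 of 8612); 97 that met more than 1 class rule were left out and 3380 met none. Of 15 immune genes planned, 10 were in the files, and T cells could not be separated. Doublets were kept, except in an alternative (207 removed). Counts were summed per library and class (4 sums per animal comparison) and tested by quasi-likelihood in edgeR 4.0.16 (TMM, filterByExpr, Benjamini-Hochberg adjustment over all genes at 0.05) in R 4.3.3, without a replicate block between animals and with a library block between classes. Comparisons between classes used only libraries with at least 10 cells of each class. Each SE was derived from the fold change and its F statistic. DESeq2 1.42.0 was an alternative. Simulated data, with a common dispersion for all genes, were used to test the fits within epithelial and mesenchymal cells and between these classes. Fits with immune cells were not tested in this way. Intervals (exact, 95%) and floors (3 counts) cover counting error only. Cells were thinned by drawing 1000 UMIs each. Sub-classes used marker genes of basal, dividing, dental-type and connective tissue cells.

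Members and lists were chosen with earlier results of these data known. All 8 members were named, with, per animal comparison, up to 3 called pathway genes in each direction of largest log2 fold change, and the 5 genes closest to the members' mean profile. Coordinates come from the RefSeq gene table of the same assembly. Sequences were not used here.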

Additional observations from a re-analysis of the deposited data

Results flagged for a closer look

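FOS and JUNB were noted because the difference between the animals was itself different between mesenchymal and epithelial cells. For FOS the log2 fold change of LG252 over LG255 was larger by 2.88 in mesenchymal cells, and for JUNB by 1.89. Both values come from an edgeR fit of the sums of both classes with the library as a block, with adjusted p of 0.00367 and 0.0411 over 13034 genes. Fitted separately, the classes gave 2.97 (mesenchymal) and 0.26 (epithelial) for FOS and 2.39 and 0.73 for JUNB, which need not differ by the joint values. FOS lost the call in 3 of 14 alternatives and JUNB in 9 of 14. For JUNB these included RLE size factors (edgeR adjusted p = 0.0608) and DESeq2 (adjusted p = 0.159). Both lost it with the replicate block (edgeR adjusted p of 0.211 and 0.370), which took the place of the library block. In epithelial cells the FOS levels of the animals overlapped, and in mesenchymal cells they did not. The LG255 side of the mesenchymal comparison held 131 FOS UMIs and 139 JUNB UMIs from 125 cells.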

How the results depend on the processing

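In epithelial cells the number of members called between the animals ran from 5 to 7 over 14 alternatives beside 6, and JUND, FOSB and ATF3 were called in all 14. In mesenchymal cells, where LG255 holds 125 cells, 2 members and 33 of 7539 genes were called. These became 6 members and 190 of 7539 genes with DESeq2, 6 and 552 of 16772 with no filter on low counts, 5 and 137 of 8591 with barcodes of several rules kept, 4 and 77 of 3017 with every cell thinned to 1000 UMIs, and 1 and 22 of 7301 with class minimums raised. With 1 library left out the members ran from 0 to 6, beside 0 genes without either LG255 library, 400 of 7136 without LG252 replicate 1 and 1065 of 7155 without LG252 replicate 2. In immune cells 0 members and 8 of 4451 genes became 1 and 86 of 4451 with DESeq2, 1 and 29 of 5710 with class minimums lowered, 2 and 309 of 16066 with no filter, and 0 to 1 members with 1 library left out, beside 0 to 213 genes. Chosen after seeing the data, the wider immune rule gave 1 and 44 of 6555, and leaving out macrophages 1 and 76 of 2234. For epithelial against mesenchymal cells 3 members and 3356 of 11597 genes became 5 and 4562 of 18703 with no filter, 0 and 2570 of 11597 with no library block, and 2 to 5 members, beside 2073 to 3484 genes, with 1 library left out. For epithelial against immune cells 4 members and 3555 of 11424 genes became 1 and 1383 of 5087 with every cell thinned, 1 and 2782 of 11424 with no library block, and 1 to 4 members, beside 2203 to 3564 genes, with 1 library left out. For mesenchymal against immune cells 0 members and 1456 of 6266 genes became 2 and 2991 of 11016 without macrophages. That fit held the LG252 libraries only. For the difference of the animal effect between mesenchymal and epithelial cells, 2 members and 42 of 13034 genes became 1 member with RLE size factors, DESeq2, class minimums raised, doublets removed, the mitochondrial limit of 20% and thinning, beside 7 to 40 genes. They became 0 and 2 of 13270 with barcodes of several rules kept, and 0 to 4 members, beside 21 to 625 genes, with 1 library left out. FOS was called in 11 of 14 alternatives and JUNB in 5 of 14. For the immune minus epithelial difference 0 members and 105 of 12882 genes became 1 and 75 of 12427 with class minimums raised, and 0 to 2 members, beside 48 to 135 genes, with 1 library left out. It could not be fitted without macrophages. Where the construction does not show it (fewer cells or genes), the cause was not tested.

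Replicate numbers did not pair the libraries: deviations of same-numbered libraries correlated at -0.08, -0.02 and -0.08 in the 3 classes. With the replicate number as a block, 6 members were called in epithelial cells among 4045 of 12528 genes, 5 in mesenchymal cells among 99 of 7539, 1 in immune cells among 34 of 4451, and 0 in the immune minus epithelial difference among 25 of 12882. FOS in mesenchymal cells was then 2.93 (edgeR adjusted p = 0.0345). For the differences of the animal effect the replicate number took the place of the library block, so classes of the same library were no longer paired. In the mesenchymal minus epithelial difference 0 members were called. There FOS was 2.93 (edgeR adjusted p = 0.211) and JUNB 1.89 (adjusted p = 0.370), with 0 of 13034 genes called.

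Of the members' values given singly, 200 of the alternative values of called ones stayed called and 45 did not. Of the alternative values of uncalled ones, 52 became called, 201 stayed uncalled with the same sign and 3 changed sign. FOSL2 in mesenchymal cells was -0.057 without LG252 replicate 2, in a range of -0.057 to 1.33 over the libraries left out. JUND in the mesenchymal minus epithelial difference was 0.049 with barcodes of several rules kept and 0.039 without LG255 replicate 1, in a range of -0.83 to 0.039 over the libraries left out. Another 22 uncalled values are not given singly. Of their 341 alternative values, 77 changed sign and 6 were called. RLE size factors moved the median of all genes from 0.11 to 0.25 for epithelial against immune cells, from -0.02 to 0.11 for mesenchymal against immune cells, from 0.19 to 0.08 for the mesenchymal minus epithelial difference and from 0.54 to 0.41 for the immune one.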

Other observations

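Barcodes that met none of the class rules numbered 2299 and 621 in LG252, against 222 and 238 in LG255, and members were found in them too. JUND stood there at 2314 and 1473 CPM (LG252) against 26.0 and 17.7 CPM (LG255), a pooled ratio of 99.0 (95% counting interval 72.4 to 139). FOSB (127 and 219 CPM against 27.2 and 53.2 CPM), FOSL2 (155 and 168 CPM against 42.1 and 22.7 CPM) and JUN (744 and 505 CPM against 260 and 227 CPM) did not overlap between the animals either. The same held for JUNB (1064 and 822 CPM against 650 and 381 CPM) and ATF3 (220 and 234 CPM against 153 and 124 CPM). FOS overlapped, with 657 and 859 CPM in LG252, against 723 and 674 CPM in LG255. These barcodes hold cells of unknown classes, and no test was run on them.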
